A study of Sus scrofa with 4 samples.

Results

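The signals of 10 genes were followed in the ileum of suckling piglets with low and with high weight gain. They are *CA3*, which encodes carbonic anhydrase 3, and 9 adipocyte genes, *FABP4*, *ADIPOQ*, *PLIN1*, *CIDEA*, *CIDEC*, *AQP7*, *RETN*, *LEP* and *LIPE*. Their probes were found through the RefSeq transcript accession that the array design gives for each probe, and 39 of the 43603 non-control probes belonged to the 10 genes. The genes were chosen by measured values of the same arrays, above all the low signals of *CA3* and *FABP4* in low weight gain, so their differences between the groups are a description. Where counts of member probes past a threshold are given, they describe the fit over all probes and support nothing about the members. The label of the group holds only in part. Of the 9 adipocyte genes, 5 had lower means in low gain on every probe, 3 had higher means and *LIPE* had probes in both directions.

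RNA came from ileum slices of piglets aged 16 days that were fed by lactating sows and had Yorkshire × Landrace dams and Duroc sires. The low-gain group had 2 arrays, each with RNA pooled from 2 piglets, and the high-gain group had 2 arrays, each with RNA pooled from 3 piglets. The labels speak of weight gain, whereas the design text of the series speaks of weight at birth. Nothing in the labels says whether arrays a and b of a group carried separate pools, so every error given here rests on spread between arrays and may be technical. The SEs are limma's moderated ones, in which each probe's variance is drawn towards a value estimated over all tested probes. An SE can therefore be larger or smaller than a probe's own arrays would give.

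Fat cells keep triglyceride in a lipid droplet whose coat protein, perilipin 1, is encoded by *PLIN1*. Hormone-sensitive lipase, encoded by *LIPE*, releases fatty acids from the stored fat, the carrier encoded by *FABP4* binds them in the cytosol, and the channel encoded by *AQP7* lets the glycerol out. *CIDEA* and *CIDEC* encode droplet proteins that promote droplet growth, and *ADIPOQ*, *LEP* and *RETN* encode the secreted proteins adiponectin, leptin and resistin. Carbonic anhydrase 3 is a cytosolic enzyme of low carbon dioxide hydrating activity, known to be abundant in slow skeletal muscle and in fat cells. In the gut, fat cells lie mainly in the mesentery and can occur in the submucosa. In bulk RNA, fewer cells of a type and less RNA per cell cannot be told apart.

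Signals are log2 processed intensities minus the 75th percentile of the same array, so that a value of 0 is the array's 75th percentile and each unit is a doubling. Between 32835 and 33972 of 43803 non-control spots carried the scanner's flag for a signal well above background, and no spot was saturated. Each member probe was printed once, and none of its spots carried an outlier flag. All 39 member probes were well above background on high-gain array a and 38 on high-gain array b, against 20 on low-gain array a and 22 on low-gain array b. The tissue label held against its markers. All 8 measured epithelial genes were well above background on all 4 arrays. *FABP6*, the ileal bile acid binding protein gene, was named for this check outside the rule for named genes and stood at 8.65 and 8.72 on the low-gain arrays and at 8.55 and 8.76 on the high-gain arrays.

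*CA3* had 19 probes, all assigned by the array design to 1 transcript, where the median named gene had 2. On 15 of them the low-gain arrays gave no signal well above background, while the high-gain arrays did. Intensities of these 15 probes ran from 1.13 to 4.49 in low gain, with a median of 1.61, and from 39.0 to 213 in high gain, with a median of 100.4. The scanner software put the median error of a spot at 1.36 in low gain and 10.1 in high gain, so the low-gain intensities lay close to their own error.

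**Figure D1:**
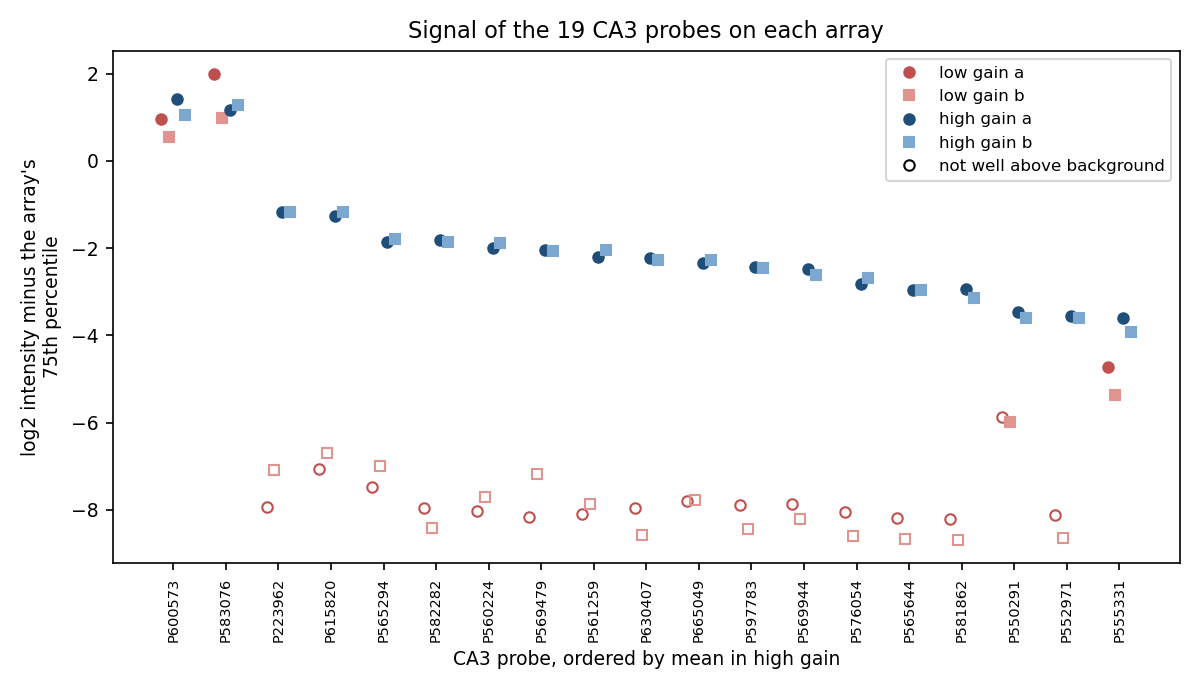
Log2 intensity minus the array's 75th percentile for the 19 *CA3* probes, with 1 point per array (circles array a, squares array b, red low gain, blue high gain) and open symbols where the probe was not well above background. Of the probes, 15 have only open symbols in low gain and filled symbols between -3.59 and -1.16 in high gain, whereas the 2 probes at the left lie between 0.55 and 1.99 on all 4 arrays.

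The probe A_72_P223962 had the highest high-gain mean of these 15. It gave -7.93 and -7.09 on the low-gain arrays and -1.18 and -1.17 on the high-gain arrays. Neither low-gain value was well above background, and the high-gain values were nearly equal. It was at least 31.7-fold lower in low gain, where each low-gain array was taken at its lowest signal well above background, or at the probe's own signal if that was higher. At the other end, A_72_P552971 gave -8.11 and -8.65 on the low-gain arrays and -3.57 and -3.59 on the high-gain arrays, and was at least 5.98-fold lower in low gain. The median of this bound over the 15 probes was 15.0-fold. No error is attached to such a bound, since its low-gain side on these probes is a floor and not their measured signal.

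The 15 probes varied among themselves in high gain by more than the arrays did. Their high-gain values ran from -3.57 to -1.18 on array a and from -3.59 to -1.16 on array b, while the gap between arrays a and b had a median of 0.06 and a maximum of 0.20. In low gain the gap between arrays a and b had a median of 0.47 and a maximum of 0.99, at signals not well above background. The spots were spread over rows 49 to 448 and columns 5 to 74 of the array, and their local background ran from 15.5 to 21.0 in low gain and from 16.0 to 21.5 in high gain.

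The other 4 *CA3* probes showed something else. A_72_P550291 gave -5.87 and -5.98 on the low-gain arrays, only the second of them well above background, and -3.46 and -3.60 on the high-gain arrays. A_72_P555331 was measured on all 4 arrays, at -4.74 and -5.38 in low gain and at -3.61 and -3.92 in high gain, a difference of -1.29 ± 0.27 (SE, n = 2 arrays per group). On both of these the low-gain arrays lay below the high-gain arrays. The remaining pair had the highest signal of the 19 in low gain and did not share a contrast of this size.

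A_72_P600573 gave 0.96 and 0.55 on the low-gain arrays and 1.42 and 1.05 on the high-gain arrays, a difference of -0.49 ± 0.22. A_72_P583076 gave 1.99 and 0.995 on the low-gain arrays and 1.17 and 1.28 on the high-gain arrays, a difference of 0.27 ± 0.37. The groups did not overlap on the first of these and overlapped on the second, where low-gain array a stood above the other 3 arrays. Without low-gain array a the difference of A_72_P583076 was -0.23. Which of the 19 probes read *CA3* RNA alone was not tested. The sequences of the probes were not used here.

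Over all 19 *CA3* probes the median difference was -5.50, against a median of 0.02 over all 33264 probes tested. Since 15 of the 19 low-gain signals were not well above background, that fitted median is not a size. Over the 3 *CA3* probes that were well above background on all 4 arrays, the median was -0.49. Of the 19, 16 were past limma's adjusted threshold of 0.05 on the low side, where 0.144% of all tested probes were. The genes were chosen on that contrast, so nothing is read from this share. The count was 15 without low-gain array a, 15 without low-gain array b, and 0 without either high-gain array.

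*FABP4* was lower in low gain on all 7 of its probes. Its probe of highest signal, A_72_P576219, gave 0.04 and 0.08 on the low-gain arrays and 1.53 and 1.70 on the high-gain arrays. The groups lay apart by many times the gap within them, and the difference was -1.55 ± 0.12, a 2.93-fold lower signal. In intensity these were 421 and 492 in low gain and 1390 and 1527 in high gain.

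The other probes of *FABP4* repeated this size over a wide range of signal. A_72_P598018 gave -0.21 and -0.13 in low gain and 1.08 and 1.28 in high gain. A_72_P611338, among the dimmest, gave -3.50 and -3.48 in low gain and -2.09 and -1.84 in high gain. The differences of the 6 tested probes lay between -1.60 and -1.35 with a median of -1.48, and SEs were 0.11 to 0.13. The gap between arrays a and b on these 6 was at most 0.08 in low gain and at most 0.25 in high gain, with array b above array a on all 6 in high gain. The last probe, A_72_P496561, was well above background on high-gain array a alone and was not tested. It gave -7.86 and -8.44 in low gain and -5.88 and -6.62 in high gain. All 6 tested *FABP4* probes were well above background on both low-gain arrays. Without high-gain array a the median over the 6 probes was -1.60.

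*ADIPOQ* and *PLIN1* were faint in this tissue. The *ADIPOQ* probe A_72_P165401 gave -2.89 and -3.96 on the low-gain arrays and -2.45 and -2.48 on the high-gain arrays, a difference of -0.96 ± 0.39. Low-gain array b lay far below array a, so that the gap within low gain, 1.06, exceeded the difference between the groups, which was -0.43 without low-gain array b. The second probe, A_72_P767053, gave -5.85 and -6.84 in low gain, neither well above background, and -4.56 and -4.81 in high gain, which makes it at least 2.70-fold lower in low gain. The only *PLIN1* probe gave -7.60 and -6.11 on the low-gain arrays and -5.03 and -5.42 on the high-gain arrays. It was well above background on low-gain array b but not on array a, and its difference was -1.63 ± 0.55 with a gap of 1.49 between the low-gain arrays. Without low-gain array a it was -0.88. For both genes the high-gain arrays were the higher ones on every probe.

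**Figure D2:**
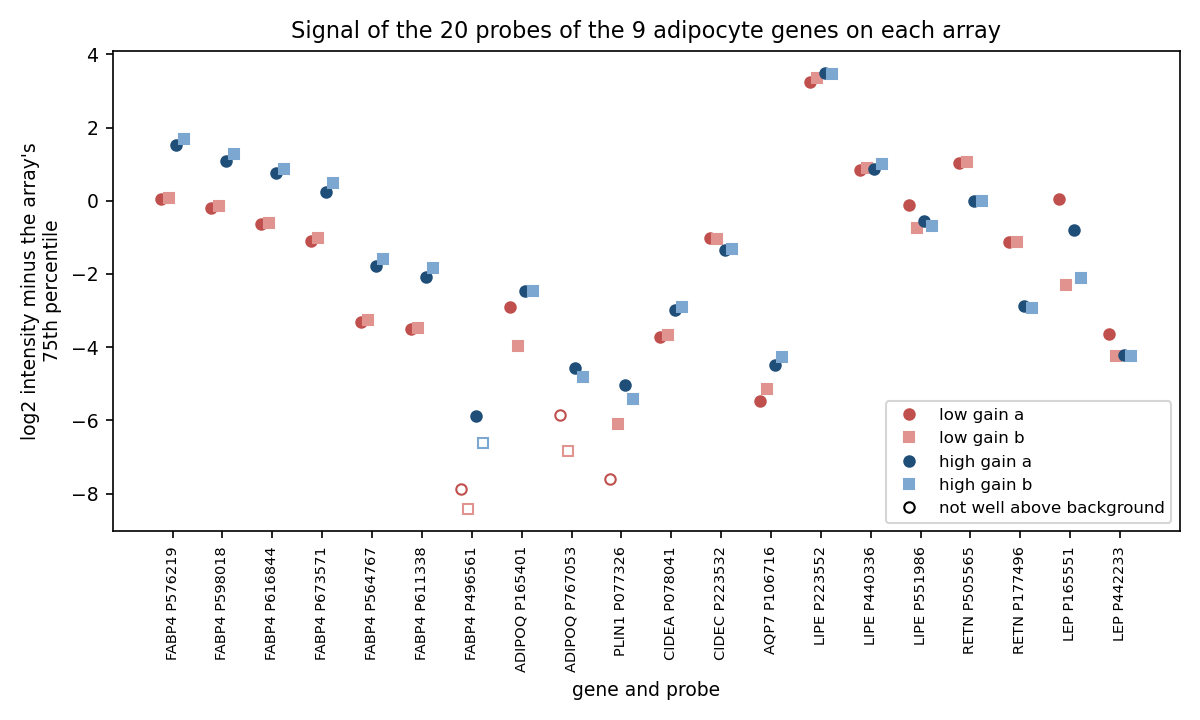
Log2 intensity minus the array's 75th percentile for the 20 probes of the 9 adipocyte genes, grouped by gene, with 1 point per array (circles array a, squares array b, red low gain, blue high gain) and open symbols where the probe was not well above background. The red points lie below the blue ones for *FABP4*, *ADIPOQ*, *PLIN1*, *CIDEA* and *AQP7*, above them for *CIDEC* and *RETN*, and among them for both *LEP* probes.

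The droplet protein genes *CIDEA* and *CIDEC* had differences of opposite sign. *CIDEA* gave -3.73 and -3.67 on the low-gain arrays and -2.99 and -2.91 on the high-gain arrays, a difference of -0.75 ± 0.10. *CIDEC* gave -1.03 and -1.05 on the low-gain arrays and -1.36 and -1.32 on the high-gain arrays, a difference of 0.30 ± 0.10. Both were read by 1 probe and lay well above background on all 4 arrays, and the gaps between arrays a and b were at most 0.08. Whether the 2 genes differ in their response was not tested.

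The channel gene *AQP7* gave -5.47 and -5.14 on the low-gain arrays and -4.48 and -4.28 on the high-gain arrays, a difference of -0.92 ± 0.17. Its intensities were low, 9.28 and 13.2 in low gain and 21.6 and 24.2 in high gain, but well above background on all 4 arrays. The groups did not overlap.

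*LIPE*, which is also expressed outside fat, had the smallest differences of the members. Its probe of highest signal, A_72_P223552, gave 3.26 and 3.36 on the low-gain arrays and 3.50 and 3.48 on the high-gain arrays, a difference of -0.18 ± 0.10. The groups did not overlap on this probe. On A_72_P440336 the difference was -0.08 ± 0.11 and on A_72_P551986 it was 0.18 ± 0.25, with overlapping groups on both. Each of the 3 was well above background on every array.

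Of the secreted proteins besides adiponectin, resistin and leptin had higher means in low gain. *RETN*, whose human counterpart is expressed mainly in monocytes and macrophages and less in fat cells, gave 1.04 and 1.05 on the low-gain arrays and 0.01 and 0.00 on the high-gain arrays with A_72_P505565, a difference of 1.04 ± 0.10. A_72_P177496 gave -1.13 and -1.11 on the low-gain arrays and -2.87 and -2.93 on the high-gain arrays, a difference of 1.78 ± 0.10. On both probes the low-gain arrays lay above the high-gain arrays with gaps within a group of at most 0.06. The 2 probes differed in size, with 2.06-fold and 3.43-fold higher signals in low gain. A_72_P177496 was the only probe of the 9 adipocyte genes past limma's adjusted threshold, where 0.0962% of all tested probes were past it on the high side. As *RETN* was also chosen on these arrays, nothing is read from this call. Leaving out any 1 array left no probe of these 9 genes past it.

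*LEP* could not be ordered between the groups. A_72_P165551 gave 0.05 and -2.29 on the low-gain arrays and -0.81 and -2.10 on the high-gain arrays, so that array a exceeded array b by 2.34 in low gain and by 1.29 in high gain. The difference was 0.33 ± 0.95. A_72_P442233 gave -3.64 and -4.25 on the low-gain arrays and -4.21 and -4.25 on the high-gain arrays, a difference of 0.29 ± 0.24. Both were well above background on all 4 arrays. The median over both probes, 0.31, was -0.43 without low-gain array a and -0.021 without high-gain array b.

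Over the 38 tested member probes, the low-gain arrays lay below both high-gain arrays on 30, above both on 3 and among them on 5. For the 19 tested probes of genes other than *CA3*, these counts were 12, 3 and 4. Among all tested probes, 26.9% had both low-gain arrays below and 27.6% had both above. The members were picked on this contrast, so the shares are not set against each other. With 1 probe a gene, the one with the highest mean signal, 6 members were lower and 4 higher in mean in low gain. The median was -0.46, and none was past the threshold.

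Other genes of fat cell formation and fat metabolism were read beside the members. Of 40 other adipocyte genes, 30 had a tested probe, all well above background on all 4 arrays, and 14 of these were higher and 16 lower in mean in low gain. Their median difference was -0.03, against 0.02 over 2158 named genes. How much of the signal of these 30 genes came from fat cells was not tested. None passed limma's test with Benjamini-Hochberg adjustment, in which 0.232% of named genes were called higher and 0.185% lower. At an unadjusted p under 0.05 there were 1 higher and 5 lower, where 12.5% of named genes were higher and 9.13% lower. *PPARG* (0.20 ± 0.14), the master regulator gene of fat cell formation, *LPL* (0.20 ± 0.11), the gene of the lipase that frees fatty acids from lipoproteins, *CD36* (0.04 ± 0.12), a fatty acid uptake gene, and *SCD* (-0.03 ± 0.10), a desaturase gene, had differences between -0.03 and 0.20. These 4 were named outside the rule, after their values were seen, for their role, and do not stand for the 30 genes. Their other probes ran from 0.10 to 0.43 (*PPARG*), -0.52 to 0.25 (*LPL*), 0.10 to 0.26 (*CD36*) and -0.48 to 0.03 (*SCD*). Also named after their values were seen, *PLIN2* (-0.45), *PNPLA2* (-0.41) and *PCK1* (-0.34) were among the 16 lower genes. *SREBF1* (0.28) and *CAV1* (0.27) were among the 14 higher ones.

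**Figure D3:**
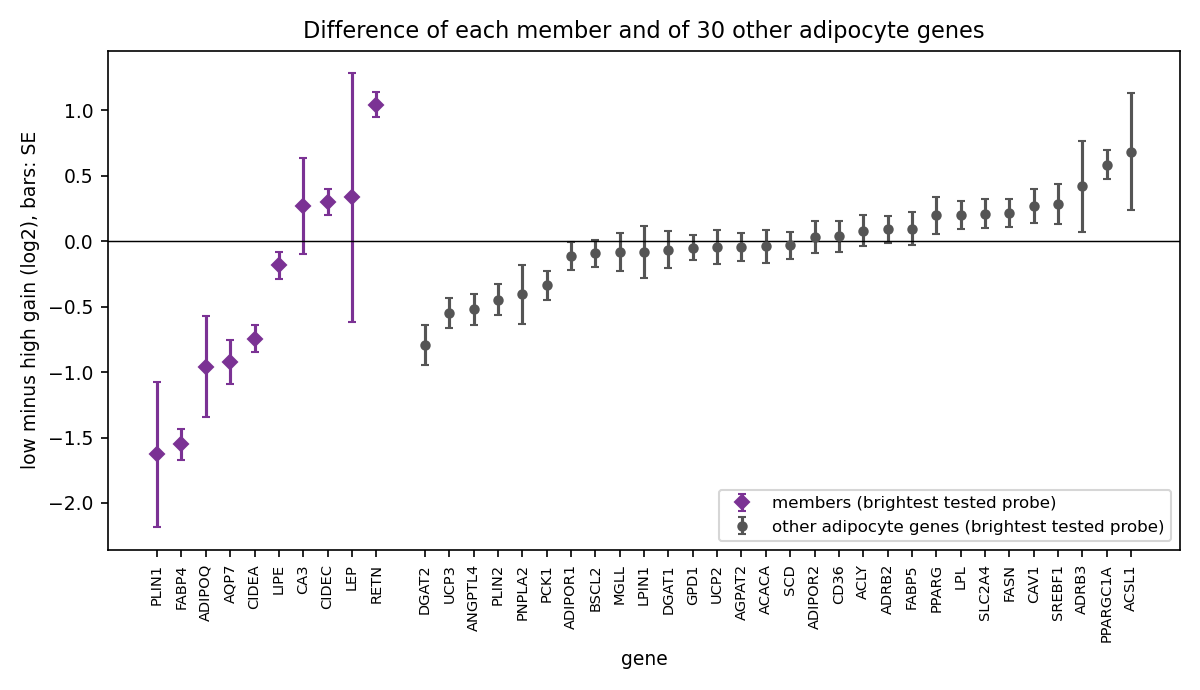
Low minus high gain difference in log2 signal with its SE (n = 2 arrays per group) for the probe of highest signal of each of the 10 members (diamonds) and of 30 other adipocyte genes (circles). The other adipocyte genes run from -0.79 to 0.69 around 0, and the members run from -1.63 to 1.04.

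The rule for named genes gave 4 of the other adipocyte genes. *DGAT2*, which encodes an enzyme of the last step of triglyceride synthesis, gave -2.18 and -1.92 on the low-gain arrays and -1.15 and -1.37 on the high-gain arrays, a difference of -0.79 ± 0.15 (limma adjusted p = 0.174), and a second probe gave -0.84. *ACSL1*, which encodes an acyl-CoA synthetase, had an adjusted p of 0.464 and a difference of 0.69 ± 0.45, while 2 further probes ran from -0.64 to 0.01. *PPARGC1A*, a coactivator gene of mitochondrial biogenesis, gave 1.68 and 1.62 on the low-gain arrays and 0.99 and 1.13 on the high-gain arrays, a difference of 0.59 ± 0.11 (adjusted p = 0.170). *UCP3*, which encodes a mitochondrial carrier, had an adjusted p of 0.183 and a difference of -0.55 ± 0.11, and a second probe also gave -0.55. When the prior variance followed signal intensity, *DGAT2*, *ANGPTL4* and *PPARGC1A* passed the test, *ANGPTL4*, which encodes an inhibitor of lipoprotein lipase and is named for this call, at -0.52.

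Of 14 other carbonic anhydrase genes, 2 had a named probe. *CA6*, the gene of the secreted salivary enzyme, gave -3.03 and -3.73 on the low-gain arrays and -2.90 and -3.36 on the high-gain arrays, a difference of -0.25 ± 0.31. *CA11*, whose product is a related protein without the enzyme activity, differed by 0.11 ± 0.12. Neither passed limma's test, at adjusted p = 0.686 and 0.623, and neither had an unadjusted p under 0.05. The other 12 genes were not analysed here, among them *CA1* and *CA2*, the cytosolic relatives known from gut epithelium.

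Since *CA3* is also a muscle gene, markers of skeletal muscle were read beside it. Of 24 genes, 16 had a tested probe, of which 12 were higher and 4 lower in mean in low gain, and the median difference was 0.14. On the probe of highest signal of each gene, none passed limma's test, with 4 higher and 1 lower at an unadjusted p under 0.05. Of named genes, 12.5% reached that unadjusted threshold on the high side and 9.13% on the low side. Their summed signal, each gene on a linear scale relative to the array's 75th percentile, was 117 and 114 on the low-gain arrays and 91.8 and 93.1 on the high-gain arrays. Most of this sum came from 1 probe of *ACTA1*, the skeletal muscle actin gene. It gave 101 and 97.4 on the low-gain arrays and 80.0 and 81.2 on the high-gain arrays. Several dimmer *ACTA1* probes lay close together, at differences from 1.35 to 1.54, with both low-gain arrays above both high-gain arrays. Of these, A_72_P736997 (1.54) passed limma's test at adjusted p = 0.047, where 0.0962% of all tested probes were past it on the high side. The rest of the other *ACTA1* probes ran from -0.87 to 0.58. The other 15 genes summed to 16.3 and 16.3 on the low-gain arrays and to 11.8 and 11.9 on the high-gain arrays. The part of muscle in the *CA3* difference was not tested. *MYH2*, a fast myosin gene, differed by 0.73 ± 0.14, *MYOZ1*, a sarcomere protein gene, by 0.67 ± 0.14, *MYLPF*, a fast myosin light chain gene, by 0.59 ± 0.32 and *CKM*, the muscle creatine kinase gene, by 0.55 ± 0.10 (adjusted p from 0.165 to 0.399). Other probes of *MYOZ1*, *MYLPF* and *CKM* also gave negative differences, down to -1.61, -0.21 and -0.27. *MYH2* was faint, at -5.96 and -6.24 on the high-gain arrays, whose lowest signals well above background were -6.30 and -6.41. The 4 genes lower in mean, named here outside the rule, were *ENO3* (-0.40), *TNNT1* (-0.27), *TNNC2* (-0.08) and *TCAP* (-0.06). Each of them was lower on all its tested probes, down to -1.04 for *ENO3* and -0.55 for *TNNT1*.

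Markers of other cell types of the gut wall were read in the same way. Smooth muscle genes had a median difference of 0.48 over 5 genes and a summed signal of 308 and 303 on the low-gain arrays against 235 and 233 on the high-gain arrays. Of this sum, 1 probe of *DES*, the desmin gene, gave 167 and 161 in low gain and 113 and 117 in high gain, while its other probes had differences from -0.34 to -0.02. Macrophage genes had a median of -0.25 over 5 genes, with summed signals of 25.4 and 25.9 in low gain and 26.3 and 26.5 in high gain. Endothelial genes had a median of -0.09 over 5 genes, with summed signals of 8.62 and 8.79 in low gain and 8.72 and 8.47 in high gain. Of the fibroblast and mesothelial genes only *THY1* (-0.51 ± 0.19) and *DCN* (0.46 ± 0.16) were tested, with summed signals of 59.4 and 53.5 in low gain and 36.8 and 45.9 in high gain, nearly all from *DCN*. Epithelial genes had a median of 0.35 over 8 genes, with summed signals of 790 and 815 in low gain and 693 and 756 in high gain, of which *FABP6* gave 401 and 420 in low gain and 376 and 434 in high gain. No gene of these lists passed limma's test, and at an unadjusted p under 0.05 there were 4 higher smooth muscle, 1 higher and 2 lower macrophage, 1 higher fibroblast and mesothelial, 3 higher epithelial and no endothelial genes, beside the same 12.5% and 9.13% of named genes. When the prior variance followed signal intensity, *CNN1*, *DES*, *MYLK* and *TPM2* of smooth muscle and *ANPEP* and *FABP2* of the epithelium passed as higher. *CD163* of the macrophages passed as lower. Under that setting 751 of all probes passed as higher and 499 as lower. With bright local backgrounds replaced before normexp, the same smooth muscle genes, *ANPEP* and *MTTP* passed as higher. The part of these cell types in the differences of the members was not tested.

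The array profile of *FABP4* was set against those of 2098 genes with a probe well above background on all 4 arrays. Each profile was the set of 4 array values minus their mean, and likeness was the Euclidean distance between profiles. The nearest was *LYZ*, the lysozyme gene, at 0.10, followed by *CALCB* at 0.32, *SAA3*, an acute-phase gene, at 0.37, *SERPINA3-2* at 0.39 and *NR0B1* at 0.43. Their own differences ran from -1.97 to -1.26. No other adipocyte gene and no member was among these 5. *PLIN1* was not among the genes compared. The lowest differences compared were -0.96 for the remaining members and -0.79 for the other adipocyte genes. The absence of these genes followed from such values, and nothing is read from it. For *CA3*, whose probe of highest signal was the one without the contrast, the nearest were *BCAS1*, *SCGB1D1*, *HCRTR2*, *PLET1* and *ADORA1*, at 0.08 to 0.15, all with low-gain array a above the other 3 arrays. With 4 arrays such distances only describe the values.

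The treatment of the signal set the size of several of these differences. In the authors' deposited values, whose normalisation is unknown, the *CA3* median was -4.42, *FABP4* stood at -1.53, *RETN* at 1.37, *CIDEA* at -0.74 and *PLIN1* at -0.66. Normexp background correction adds an offset of 50. With it, *CA3* was at -0.63, *FABP4* at -0.66, *RETN* at 0.61, *CIDEA* at -0.16, *AQP7* at -0.07 and *PLIN1* at -0.03. In a setting chosen after seeing the data, bright local backgrounds were replaced before normexp. There *CA3* was at -1.11, *FABP4* at -1.20, *RETN* at 1.07, *CIDEA* at -0.26, *AQP7* at -0.10 and *PLIN1* at -0.01. How much of each change came from the offset was not tested. The probes of highest signal of *FABP4* and *RETN* kept their direction under each of 14 alternatives. Some of these, such as the intensity trend, the array letter as a block and the filters, left their differences unchanged by construction. The intensities of *PLIN1* (2.12 and 6.75 in low gain, 14.8 and 11.0 in high gain) and of *AQP7* were below the offset itself.

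**Figure D4:**
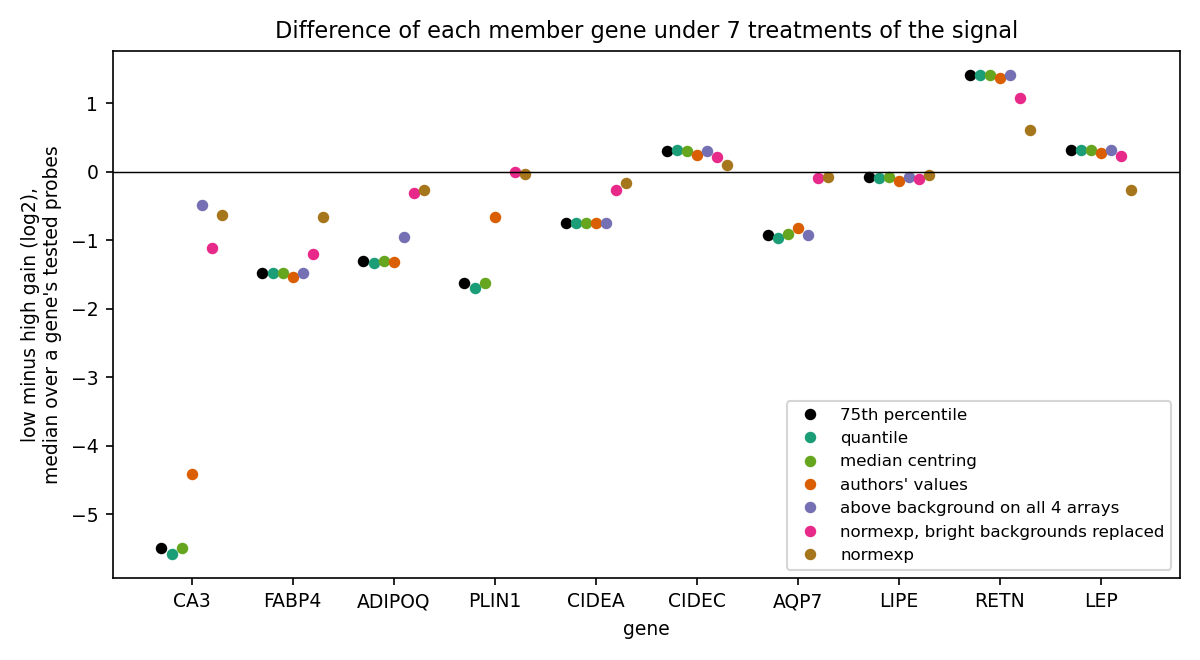
Median low minus high gain difference in log2 signal over the tested probes of each member gene under 7 treatments of the signal, 1 colour each. *FABP4* stays between -1.53 and -0.66 and *RETN* between 0.61 and 1.42, *CA3* spans -5.58 to -0.49, and *LEP* crosses 0 under normexp.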

How the data were processed

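The 4 arrays, 1 colour each (Cy3), were read with Agilent's Feature Extraction software, version 10.7.3.1 per the file headers. The deposited intensity values are processed signal, median signal and local background, and the deposited flags mark background and outliers, per the file headers. The authors' deposited log2 values have no stated centring or normalisation in the sources used here. Over spots well above background their slopes on log2 processed signal were 1.00 to 1.01, and their column medians were 5.62 and 5.59 for low gain and 5.67 and 5.60 for high gain.

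From the scanner files, the 75th percentile of log2 processed signal (43803 spots) was subtracted on each array. Outlier-flagged spots were ignored, repeat spots averaged, and 48 incomplete probes removed. Testing required a signal well above background on both arrays of a group. Low minus high gain was fitted in R 4.3.3 (limma 3.58.1, lmFit then eBayes), with p-values adjusted by Benjamini and Hochberg's method across all 33264 tested probes. The fit was tested on simulated data, and it gave the SEs of log2 differences, moderated by eBayes. An "at least" fold sets the mean log2 value of the bright group against the mean, over the arrays of the dim group, of the higher of 2 values, the array's lowest signal well above background and the probe's own signal. Unversioned RefSeq accessions matched an NCBI table of Sscrofa11.1 for 12.5% of probes (2389 genes). Coordinates are left out because no build is named in the files.

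In lists, the probe of highest mean signal stood for its gene. The rule for names took all members and up to 4 genes of every other list, first those past the test, then by size of difference among genes well above background on all 4 arrays. The members, lists and rules were chosen with earlier results of these data known. Alternatives were quantile normalisation, median centring, normexp on the median signal, the authors' values, other filters, an intensity trend, the array letter as a block, probe averaging and leaving out each array. With 2 arrays a group, precision is set by so few arrays.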

Additional observations from a re-analysis of the deposited data

How the results depend on the processing

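The alternative in which local backgrounds above the array's 99th percentile were replaced before normexp was chosen after seeing the data. The count of all probes past the test was 80, and it was 163 with median centring, 0 with normexp, 12 with no filter on dim probes, 0 with signal required on all 4 arrays, 1250 with the intensity trend (751 higher and 499 lower, against 32 and 48 in the reported fit), 1105 with replaced backgrounds (666 higher and 439 lower), and 0 to 56 when 1 array was left out. *CA3* probes past the test numbered 16, and 0 with normexp, 6 with no filter, 0 with signal on all 4 arrays and 0 to 15 without 1 array. Probes of the other members past the test numbered 1, and 5 with median centring, 0 with normexp, 2 in the authors' values, 0 with no filter, 0 with signal on all 4 arrays, 8 with the intensity trend, 8 with replaced backgrounds and 0 without any 1 array. With the array letter as a replicate block, 0 probes of any kind were called. No label pairs the letters, and same-letter deviations from the group means correlated at -0.029. Other adipocyte genes past the test numbered 0, and 3 with the intensity trend and 2 with replaced backgrounds. Skeletal muscle genes, each by its probe of highest signal, numbered 0, and 1 (*CKM*) under each of these 2 settings. The median of *CA3* was -5.50, and -5.58 with quantile normalisation, -0.63 with normexp, -4.42 in the authors' values, -0.49 with signal on all 4 arrays, -1.11 with replaced backgrounds and -5.65 to -5.44 without 1 array. That of *FABP4* was -1.48, and -0.66 with normexp, -1.20 with replaced backgrounds and -1.60 to -1.40 without 1 array. The *LEP* median of 0.31 turned to -0.26 with normexp and ran from -0.43 to 1.05 without 1 array. Its probe of highest signal, at 0.33, turned to -0.49 with normexp and ran from -0.84 to 1.51. That probe of *CA3* ran from -0.23 to 0.77 without 1 array, against -4.69 when all *CA3* probes were averaged. The median of the other adipocyte genes ran from -0.030 to 0.036 without 1 array and was 0.046 with replaced backgrounds. Of 282 alternative differences in all, 272 kept their direction, and 228 of these also moved by less than 1 SD between arrays. Many of them could not move. The intensity trend and the array letter as a block leave every difference as it was, and the filters leave most. The tally is therefore no measure of robustness. Requiring signal on all 4 arrays leaves fewer *CA3* probes by construction, and the cause of the other changes was not tested. Signal near background limits 15 *CA3* probes on both low-gain arrays and the *CA3* probe A_72_P550291 on low-gain array a. It also limits the *PLIN1* probe, and 1 probe each of *ADIPOQ* and *FABP4*.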
